A study of Mus musculus with 16 samples.

Results

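Gemcitabine (GEM) damages replicating DNA, and the response of p53 target genes and DNA damage response genes to it was examined in PDA30364 tumors with and without an agonist anti-CD40 antibody (Ab). The gene set held 32 genes, chosen by name as p53 and its regulator Mdm2, p53 targets for cell cycle arrest, apoptosis, stress restraint and repair, and the damage kinases and repair genes upstream of or beside p53. Of these, 29 were measured among 18193 named genes, by 62 of 45037 probe sets, and each gene is represented by its probe set with the highest mean over the 16 arrays. Trp53, which encodes p53, the apoptosis effector Bax and the stress cytokine Gdf15 were matched to no probe set in the annotation used and were not analysed here. PDA30364 is a single cell line derived from 1 mouse pancreatic tumor that carries mutant p53, and 500000 cells were placed under the skin of the flank of C57BL/6-Ly5.1 mice aged 6 to 12 weeks. The groups, with 4 tumors each, were GEM/anti-CD40 Ab (GEM with the agonist antibody, CD40 mIgG1), GEM (GEM with control IgG), anti-CD40 Ab (vehicle with CD40 mIgG1) and control (vehicle with control IgG). The GEM dose was 120 mg/kg, repeated on days 1, 5 and 12 of treatment. Antibody injections fell on days 3 and 4 and on days 6 and 14, and tumors were taken 22 or 23 days after inoculation. The paper states that treatment in general began a week after implant, so days of treatment and days after inoculation have different starts. RNA of whole tumors was measured on Affymetrix mouse arrays, and all values are log2 intensities per probe set after RMA, the authors' background correction and normalization. In such bulk samples, fewer cells of a type and less RNA per cell cannot be told apart. Replicate numbers are those of the labels. The titles of GEM 3 and GEM 4 carry the same animal number although 4 mice per group are stated, so both were kept.

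The p53 protein is a transcription factor that is held low by the ubiquitin ligase Mdm2. Broken DNA activates the kinase Atm and stalled replication forks activate Atr, which signal through Chek2 and Chek1 and release p53 from Mdm2. p53 then switches on genes that stop the cell cycle, such as Cdkn1a (p21), genes that trigger apoptosis, such as Bbc3 (Puma), genes that aid repair, and Mdm2 itself, which closes the loop. GEM is incorporated into DNA as a false nucleoside and stalls forks. Tumor cells of this model carry mutant p53, whereas the stromal and immune cells in the same RNA come from the host mouse. Cdkn1a and the Gadd45 genes are also known to respond to signals other than p53.

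RefSeq promoter windows (GRCm38.p6, 250 bases before to 50 after a start site) were at hand for 24 of the 32 genes, 21 of them measured. A p53 half-site, the 10-base element that a pair of p53 molecules binds, was found in windows of 10 of the 24 genes, 8 of them measured, and in 9.55% of the 27025 genes with a window. The element reads the same on both strands, so a single search covers both. A pair of half-sites with at most 13 bases between them, the form of a complete p53 site, was present in 0.074% of genes and in Cdkn1a alone among the 24. No mismatch was allowed, so near matches are neither counted nor marked. In Cdkn1a the 10 bases right after the second marked half-site differ from the element in their first base only. The stretches of Cdkn1a and of Mdm2, Ccng1 and Aen are shown because these targets carry the results below, with half-sites in capitals and each written along its gene's strand. They lie at chr17:29090881-29090962 (+ strand), chr10:117710910-117710969 (- strand), chr11:40755437-40755496 (- strand) and chr7:78895912-78895971 (+ strand) in this order. The Cdkn1a window belongs to the upstream RefSeq start site, and its pair of half-sites begins 2863 bases before the downstream start. A match of letters is a description and does not show that p53 binds there.
Cdkn1a: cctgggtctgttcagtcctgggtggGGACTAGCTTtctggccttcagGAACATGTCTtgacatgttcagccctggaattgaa
Mdm2: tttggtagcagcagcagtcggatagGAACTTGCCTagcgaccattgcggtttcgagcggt
Ccng1: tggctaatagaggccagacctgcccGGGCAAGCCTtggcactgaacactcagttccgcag
Aen: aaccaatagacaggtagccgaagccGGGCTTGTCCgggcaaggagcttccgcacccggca

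Array medians lay between 5.60 and 5.66, and 28 of the 29 genes had a mean above the median probe set (5.62). The exception was Eda2r, a death receptor of the TNF receptor family that p53 can induce (mean 4.48). Tumor epithelium genes were high in all 16 arrays (mean of 6 genes 11.63 to 12.45), as the labelled tissue implies. The 6 skeletal muscle genes averaged 12.8 in GEM/anti-CD40 4, against 4.32 to 8.51 in the other 15 arrays, and the 6 skin keratinocyte genes averaged 9.16 in control 2 and 7.05 in anti-CD40 2, against 4.75 to 5.68 in the other 14 arrays. Some of the results that include these 3 arrays are also given without them. Each comparison then loses only those of the 3 arrays that belong to its groups.

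GEM alone was not accompanied by a detectable rise of p53 targets when the tumors were taken. A rise that had ended before then would not be seen. Of the 29 genes, 0 passed in GEM against control tumors at an adjusted p under 0.05 (limma with Benjamini-Hochberg adjustment over 45037 probe sets, smallest adjusted p among the 29 = 0.786), as did 0% of all probe sets, with 2578 at an unadjusted p under 0.05. The median log2 change of the 29 genes was 0.04, that of all named genes was -0.0025, and 17 genes lay above 0 and 12 below. For all 29 genes the 95% interval of the log2 change lay between -1 and 1, and for 23 it lay between -0.5 and 0.5, so that changes of 1 or more on the log2 scale were not among the values these intervals allow. At an unadjusted p under 0.05, 2 of 29 genes were higher, where 3.34% of named genes were, and 1 was lower, where 2.97% were.

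Cdkn1a, the inhibitor of cyclin-dependent kinases that p53 uses to stop the cell cycle, had 8.64, 8.76, 8.85 and 8.81 in GEM tumors, against 9.52, 9.17, 9.04 and 8.66 in control tumors. The GEM values were close together and lay at the low end of the control values, with overlap. The log2 change was -0.33 (95% interval -0.68 to 0.02, adjusted p = 0.852, limma). The second, dimmer probe set of Cdkn1a gave -0.47 (95% interval -0.88 to -0.06, adjusted p = 0.852). Mdm2 had 9.19, 9.14, 9.12 and 9.04 in GEM tumors, against 9.14, 8.98, 8.98 and 9.07 in control tumors, a log2 change of 0.08 (95% interval -0.06 to 0.22). Ccng1, cyclin G1, which recruits a phosphatase to Mdm2, had 9.62, 9.70, 9.81 and 10.02 in GEM tumors, against 9.83, 9.81, 9.87 and 9.87 in control tumors, a log2 change of -0.06 (95% interval -0.25 to 0.14). Neither of these feedback genes separated the groups by its representative probe set.

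The smallest p in this comparison belonged to Chek1, the kinase that acts below Atr at stalled forks. It had 8.61, 8.69, 8.75 and 8.79 in GEM tumors, against 8.26, 8.26, 8.44 and 8.67 in control tumors, and only control 4 reached the GEM range. The log2 change was 0.30 (standard error 0.10, adjusted p = 0.786, limma). Ddb2, which finds ultraviolet lesions for excision repair, had 8.22, 8.34, 8.34 and 8.25 in GEM tumors, against 8.32, 7.90, 7.90 and 8.11 in control tumors, a log2 change of 0.23 (standard error 0.10, adjusted p = 0.852). Bbc3, the p53-induced killer protein Puma, pointed the other way, with 7.37, 7.54, 7.49 and 7.57 in GEM tumors and 7.62, 7.66, 7.69 and 7.78 in control tumors. All 4 GEM values lay below all 4 control values, by a log2 change of -0.20 (standard error 0.07, adjusted p = 0.786).

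**Figure D1:**
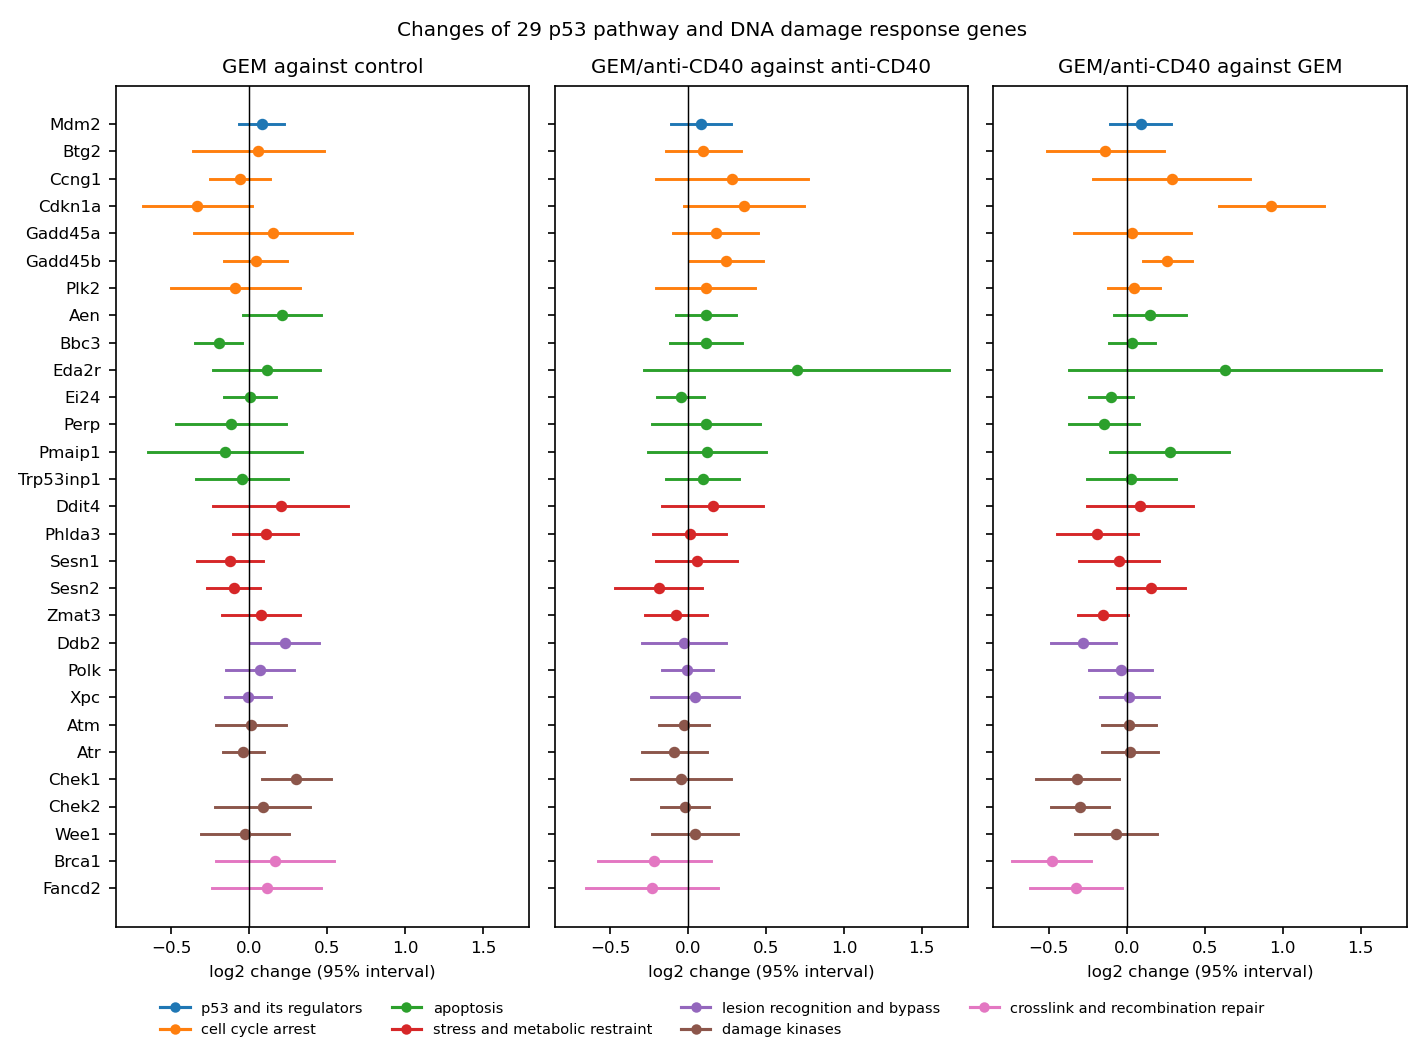
Log2 changes (x axis, points) with 95% intervals (lines) of the 29 measured genes, coloured by role, for GEM against control, GEM/anti-CD40 against anti-CD40 and GEM/anti-CD40 against GEM, with 4 tumors per group. Most intervals include 0 in the first 2 panels, whereas Cdkn1a stands at 0.93 in the third, where Brca1 is at -0.48. No gene passed at an adjusted p under 0.05.

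With anti-CD40 Ab as the background, GEM again gave no called gene. In GEM/anti-CD40 Ab against anti-CD40 Ab tumors 0 of 29 genes passed (limma, smallest adjusted p = 0.937), as did 0% of all probe sets, with 2072 at an unadjusted p under 0.05. The median log2 change was 0.06, beside 0.005 for all named genes, with 18 genes above 0 and 11 below. All 6 measured genes of cell cycle arrest lay above 0, with a median of 0.21, and 6 of 7 apoptosis genes did, with a median of 0.115. Among them, Ccng1 (0.28) and Eda2r (0.70) were at 0.03 and 0.19 without GEM/anti-CD40 4. Both crosslink and recombination repair genes lay below 0. Whether these counts by role differ from the share of all named genes above or below 0 was not tested. Only 1 gene of 29 was higher at an unadjusted p under 0.05, where 2.19% of named genes were, and 0 were lower, where 1.41% were. Without the 3 arrays with skin or muscle genes, 2 genes were higher at that level.

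With all arrays the gene was Gadd45b, a stress-induced partner of the p38 and JNK kinase pathways. It had 8.83, 8.76, 8.65 and 8.58 in GEM/anti-CD40 Ab tumors, against 8.61, 8.58, 8.19 and 8.46 in anti-CD40 Ab tumors, which met only at their edges. The log2 change was 0.245 (standard error 0.10, adjusted p = 0.937, limma). Cdkn1a had 10.17, 9.63, 9.39 and 9.57 in GEM/anti-CD40 Ab tumors, against 9.16, 9.21, 9.31 and 9.64 in anti-CD40 Ab tumors. Of these, anti-CD40 4 lay within the range of the combination and GEM/anti-CD40 1 was the highest of all 16 tumors. The log2 change was 0.36 (95% interval -0.03 to 0.75), and it was 0.20 without GEM/anti-CD40 1. Mdm2 had 9.46, 9.17, 9.11 and 9.10 in GEM/anti-CD40 Ab tumors, against 9.11, 9.11, 9.14 and 9.15 in anti-CD40 Ab tumors, so that its log2 change of 0.08 came from GEM/anti-CD40 1 and was -0.0008 without it.

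Over both backgrounds together, the 29 genes had a median log2 change with GEM of 0.02 (all named genes 0.0037), and 0 passed (smallest adjusted p = 0.900, limma over 16 arrays), where 0.00222% of probe sets, a single one, did and 2475 had an unadjusted p under 0.05. Without adjustment, 1 gene was higher, where 3.1% of named genes were, and 0 were lower, where 2.44% were, and 2 were higher without the 3 arrays with skin or muscle genes. With all arrays this gene was Aen, an exonuclease that p53 induces and that cuts DNA during apoptosis. Aen had 8.07, 7.79, 7.96 and 8.07 in GEM/anti-CD40 Ab, 8.04, 7.61, 7.81 and 7.84 in GEM, 7.72, 7.85, 7.90 and 7.96 in anti-CD40 Ab and 7.47, 7.82, 7.47 and 7.69 in control tumors. Each treated group averaged above control, and every pair of groups overlapped. The log2 change with GEM over both backgrounds was 0.16 (standard error 0.07, adjusted p = 0.900). Sesn2, a sestrin that restrains growth signaling under stress and was among the 3 smallest p here, had 7.20, 7.02, 6.90 and 6.75 in GEM/anti-CD40 Ab, 6.79, 6.73, 6.80 and 6.93 in GEM, 6.90, 7.09, 7.31 and 7.32 in anti-CD40 Ab and 6.91, 6.89, 6.78 and 7.06 in control tumors, a log2 change of -0.14 (adjusted p = 0.900).

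**Figure D2:**
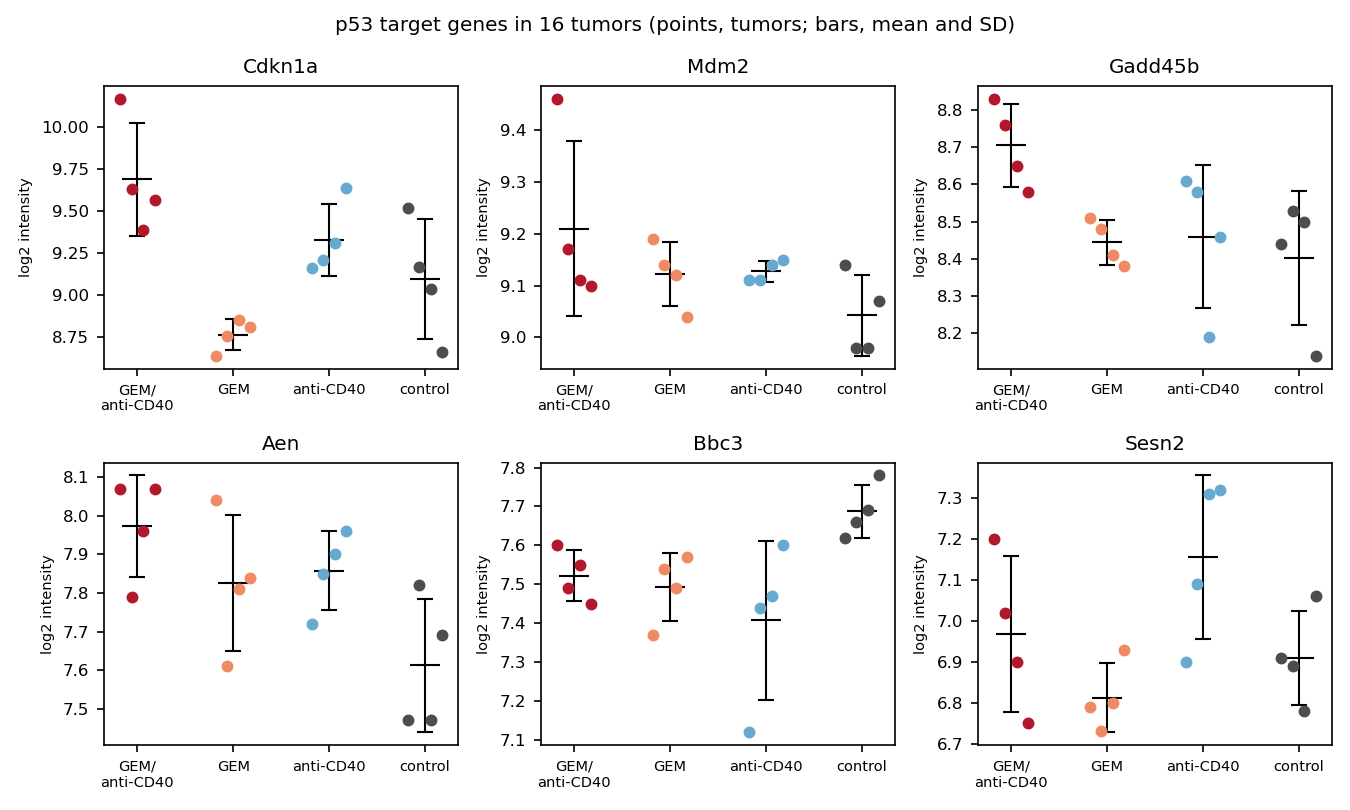
Log2 intensity (y axis) of 6 p53 target genes in each of 16 tumors by group (x axis), with the mean and SD as bars. Cdkn1a lies between 9.39 and 10.17 in GEM/anti-CD40 Ab tumors and between 8.64 and 8.85 in GEM tumors. All 4 Bbc3 values in each treated group are at or below 7.60, under the lowest control value of 7.62.

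The interaction of the drugs, fitted over 16 arrays, asks if the GEM effect differed between antibody and control IgG. Here 0 of 29 genes passed (limma, smallest adjusted p = 0.890), as did 0% of all probe sets, with 2359 at an unadjusted p under 0.05. The 29 genes had a median of 0.0025, beside 0.0075 for all named genes. Without adjustment, 2 genes at a p under 0.05 lay above 0, where 2.81% of named genes did, and 0 lay below, where 2.3% did. Cdkn1a had the larger value, 0.69 with a standard error of 0.25 (95% interval 0.17 to 1.22), since its change with GEM was 0.36 with the antibody and -0.33 without it. The Cdkn1a interaction stayed between 0.53 and 0.84 when single arrays were left out (adjusted p = 0.708 to 0.983). For Bbc3 the interaction was 0.31 (standard error 0.12), with log2 changes of 0.115 with and -0.20 without the antibody. For Chek1 it was -0.35 (standard error 0.18), with -0.045 with and 0.30 without the antibody.

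For anti-CD40 Ab alone against control, 0 of 29 genes passed (limma, smallest adjusted p = 0.807), as did 0% of all probe sets, with 2739 at an unadjusted p under 0.05. The median log2 change was -0.005, beside -0.02 for all named genes. At an unadjusted p under 0.05, 2 genes were higher, where 3.52% of named genes were, and 2 were lower, where 3.74% were. Aen (log2 change 0.245, standard error 0.10) and Sesn2 (0.245, standard error 0.11) were the higher ones. Bbc3 had 7.12, 7.44, 7.47 and 7.60 in anti-CD40 Ab tumors, all below the lowest control value of 7.62, a log2 change of -0.28 (standard error 0.10). Sesn1, a second sestrin, had 7.80, 7.59, 7.87 and 7.84 in anti-CD40 Ab tumors, against 7.87, 8.02, 7.92 and 8.21 in control tumors, which met at 7.87, and the log2 change was -0.23 (standard error 0.10). The adjusted p was 0.807 for each of these 4 genes. Without the 3 arrays with skin or muscle genes, 1 gene was higher and 0 were lower at an unadjusted p under 0.05.

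GEM/anti-CD40 Ab against control gave 0 of 29 genes (limma, smallest adjusted p = 0.437), where 0.0178% of probe sets, 8 in number, passed and 4313 had an unadjusted p under 0.05. The median log2 change was -0.02, beside -0.015 for all named genes. At an unadjusted p under 0.05, 3 genes were higher, where 5.86% of named genes were, and 1 was lower, where 5.35% were. Aen averaged 7.97 ± 0.13 in GEM/anti-CD40 Ab and 7.61 ± 0.17 in control tumors (SD, n = 4 each), a log2 change of 0.36 (standard error 0.10, adjusted p = 0.437, limma). Gadd45b averaged 8.705 ± 0.11 in GEM/anti-CD40 Ab and 8.40 ± 0.18 in control tumors, and all 4 combination values lay above the highest control value of 8.53 (log2 change 0.30, adjusted p = 0.457). Cdkn1a averaged 9.69 ± 0.34 in GEM/anti-CD40 Ab and 9.10 ± 0.36 in control tumors, where control 1 (9.52) lay within the combination range (log2 change 0.59, adjusted p = 0.472). Bbc3 averaged 7.52 ± 0.07 in GEM/anti-CD40 Ab and 7.69 ± 0.07 in control tumors, with all 4 combination values at or below 7.60 (log2 change -0.165, adjusted p = 0.486). The comparisons against control share the same 4 control tumors.

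The widest differences among the 29 genes lay between GEM/anti-CD40 Ab and GEM alone. Cdkn1a had 10.17, 9.63, 9.39 and 9.57 in GEM/anti-CD40 Ab tumors, against 8.64, 8.76, 8.85 and 8.81 in GEM tumors. All 4 combination values lay more than 0.5 above the highest GEM value, and the log2 change was 0.93 with a standard error of 0.15 (95% interval 0.59 to 1.26), a 1.9-fold difference in intensity. This was the smallest p of the 29 genes (unadjusted p = 0.000153), and it did not pass over all probe sets (adjusted p = 0.197, limma). When single arrays were left out the log2 change was 0.765 to 1.025 and the adjusted p 0.0632 to 0.472. The second probe set of Cdkn1a gave 0.96 (standard error 0.15, adjusted p = 0.197). Gadd45b also separated the groups, with 8.58 to 8.83 in GEM/anti-CD40 Ab tumors and 8.38 to 8.51 in GEM tumors (log2 change 0.26, standard error 0.07, adjusted p = 0.251).

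On the other side of 0 lay some of the checkpoint and repair genes, 2 of 5 damage kinases, 1 of 3 lesion genes and both recombination genes at an unadjusted p under 0.05. Atm (0.015), Atr (0.02) and Xpc (0.015) lay just above 0, and Polk (-0.04) and Wee1 (-0.07) just below. Brca1, which loads the recombinase at broken DNA, had 8.15, 8.48, 7.97 and 8.31 in GEM/anti-CD40 Ab tumors, against 8.65, 8.63, 8.67 and 8.89 in GEM tumors, without overlap. Its log2 change was -0.48 (standard error 0.11, adjusted p = 0.218, limma). Chek2, which Atm activates at breaks, had 7.68 to 7.89 in GEM/anti-CD40 Ab tumors, against 7.96 to 8.28 in GEM tumors, also without overlap (log2 change -0.30, adjusted p = 0.26). The ranges overlapped for Fancd2, the Fanconi anemia protein that marks crosslinks (log2 change -0.33, adjusted p = 0.389), Chek1 (-0.32, adjusted p = 0.355) and Ddb2 (-0.28, adjusted p = 0.31). Thus 5 genes of 29 were lower at an unadjusted p under 0.05, where 6.1% of named genes were, and 2 were higher, where 6.67% were. With GEM 3 and GEM 4 averaged as 1 tumor, 3 genes were lower in place of 5. In all, 0 of 29 genes passed, as did 0% of all probe sets, 5211 of which had an unadjusted p under 0.05. The median log2 change was 0.015, beside -0.02 for all named genes.

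Other cell type genes differed between the same tumors. The mean of 6 genes of proliferating cells was 10.14 to 10.72 in GEM/anti-CD40 Ab and 10.55 to 10.85 in GEM tumors. Its lowest value was in GEM/anti-CD40 3, the tumor with the lowest Brca1, Chek1, Chek2 and Fancd2 of the combination. Ddb2 went the other way, with its highest value of the combination in that tumor (8.25). Macrophage genes (mean of 5) were at 9.37 to 10.35 in GEM/anti-CD40 Ab and 8.95 to 9.61 in GEM tumors, and T cell genes (mean of 4) at 5.93 to 7.34 in GEM/anti-CD40 Ab and 5.18 to 5.55 in GEM tumors. Granulocytic cell genes (mean of 4) were at 8.20 to 8.93 in GEM/anti-CD40 Ab and 7.56 to 8.33 in GEM tumors, and endothelial genes (mean of 4) at 6.24 to 7.36 in GEM/anti-CD40 Ab and 5.95 to 6.44 in GEM tumors. The groups overlapped for each of these lists but the T cell one. Tumor epithelium genes were at 12.03 to 12.45 in GEM/anti-CD40 Ab and 12.06 to 12.36 in GEM tumors. The part of these cell type differences in the values of Cdkn1a, Gadd45b and the repair genes was not tested.

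**Figure D3:**
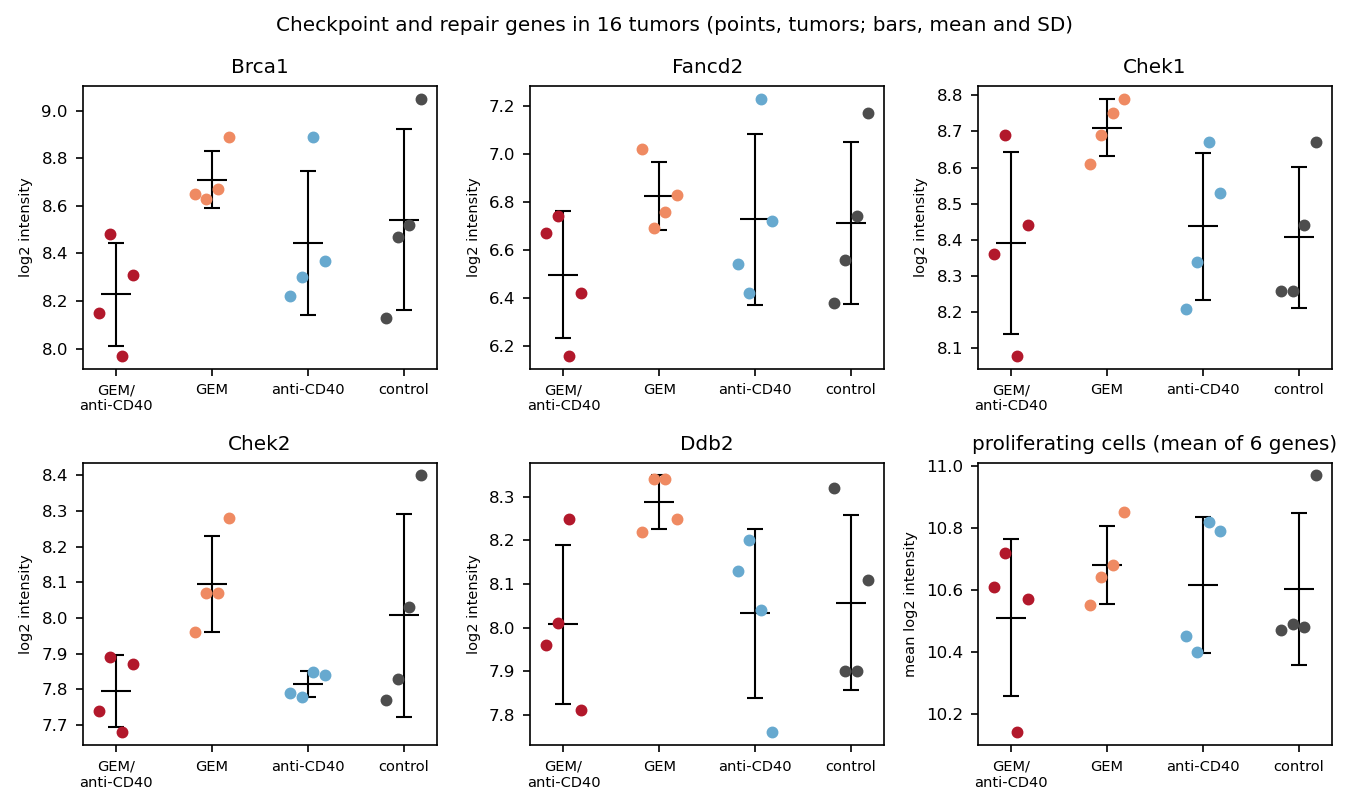
Log2 intensity (y axis) of 5 checkpoint and repair genes, and the mean log2 intensity of 6 genes of proliferating cells, in each of 16 tumors by group (x axis), with the mean and SD as bars. Brca1 and Chek2 do not overlap between GEM/anti-CD40 Ab and GEM tumors, while control 4 is the highest tumor for Brca1, Chek2 and the proliferation genes.

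Ccng1 and Eda2r stood out in a single tumor. Ccng1 had 9.96, 9.70, 9.82 and 10.82 in GEM/anti-CD40 Ab tumors, against 9.70, 9.91, 9.79 and 9.78 in anti-CD40 Ab tumors, and the log2 change of 0.28 was 0.03 without GEM/anti-CD40 4. Eda2r had 4.79, 4.54, 4.13 and 6.51 in GEM/anti-CD40 Ab tumors, against 4.29, 4.11, 4.43 and 4.35 in anti-CD40 Ab tumors, and the log2 change of 0.70 was 0.19 without GEM/anti-CD40 4. That tumor is the one with the 6 muscle genes at 12.8. GEM 4, which came next in muscle genes at 8.51, was the highest of the GEM tumors for both genes, at 10.02 for Ccng1 and 4.75 for Eda2r. The anti-CD40 Ab tumor highest in muscle genes, anti-CD40 4 (6.29), was the highest of its group for neither gene (Ccng1 9.78, Eda2r 4.35). The control tumor highest in muscle genes, control 4 (7.91), shared the highest control Ccng1 (9.87). Its Eda2r (4.37) lay below that of control 2 (4.45). Whether muscle tissue in the sample raised these values was not tested.

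**Figure D4:**
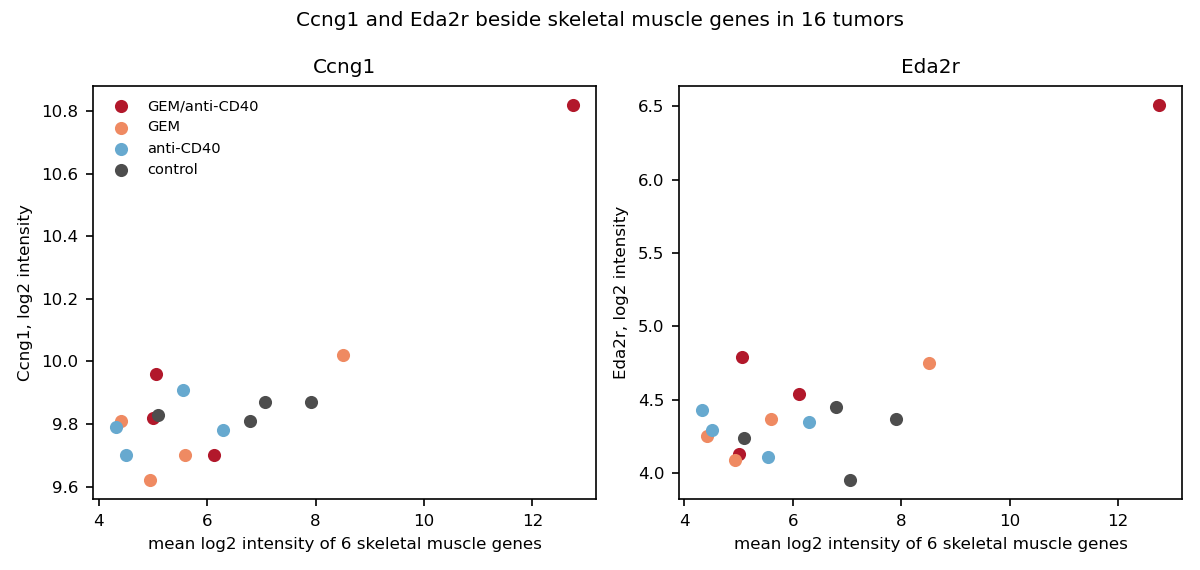
Log2 intensity of Ccng1 and of Eda2r (y axes) against the mean log2 intensity of 6 skeletal muscle genes (x axis) in 16 tumors, coloured by group. GEM/anti-CD40 4 stands alone at the upper right, at 10.82 for Ccng1 and 6.51 for Eda2r.

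Several of the other genes varied as widely between tumors as those above. Among cell cycle genes, Gadd45a spanned 9.14 to 10.19, the anti-proliferative gene Btg2 7.59 to 8.68 and the polo-like kinase Plk2 8.98 to 9.98 over 16 tumors. Among apoptosis genes, Perp, a desmosome protein of epithelia, spanned 9.73 to 10.98 with its highest value in control 2, the tumor with skin genes, Pmaip1 (Noxa) 9.77 to 10.88, Trp53inp1 10.72 to 11.38 and Ei24, an endoplasmic reticulum protein, 10.32 to 10.63. Ddit4, an inhibitor of the growth kinase mTORC1, was the brightest of the stress genes at 10.79 to 11.81, followed by wide overlap of groups for Phlda3 (8.35 to 8.82), an inhibitor of Akt, and the RNA-binding gene Zmat3 (8.24 to 8.77). The lesion sensor Xpc (8.13 to 8.66), the bypass polymerase Polk (8.21 to 8.64), the kinases Atm (8.43 to 8.86) and Atr (8.32 to 8.70) and Wee1 (8.70 to 9.38), which holds cells before mitosis, complete the set. None of these 15 genes had an unadjusted p under 0.05 in any of the 7 comparisons.

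Where a gene had several probe sets they did not always point one way. For Mdm2 in GEM against control, the brightest probe set gave 0.08 and the dimmest, with a mean of only 3.63, gave -0.30. This dim probe set gave -0.205 in GEM/anti-CD40 Ab against anti-CD40 Ab, and its groups did not overlap in either comparison. Over both backgrounds it gave -0.25 (unadjusted p = 0.000117, adjusted p = 0.31, limma), where the brightest gave 0.08. For Sesn2 in anti-CD40 Ab against control, the representative gave 0.245 and the other probe set -0.055. For Chek1 in GEM against control, 4 of 5 probe sets lay between 0.095 and 0.30 and the dimmest at -0.025. For Brca1 in GEM/anti-CD40 Ab against GEM, the other 3 gave -0.365, -0.04 and -0.345. The second Gadd45b probe set (mean 8.04) differed from the representative in the overlap of groups. In GEM/anti-CD40 Ab against control it gave 0.24 with overlap, where the representative gave 0.30 without. In GEM/anti-CD40 Ab against anti-CD40 Ab it gave 0.41 without overlap, where the representative gave 0.245 with overlap.

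Further genes of the pathway, taken from lists by function, numbered 91 measured, and 0 of them passed with GEM in either background. In GEM against control, all 18 genes of the replication stress checkpoint lay above 0, with a median log2 change of 0.11, and 0 had an unadjusted p under 0.05. The Fanconi anemia pathway had 10 of 12 above 0 (median 0.08) and double strand break repair 16 of 22 (median 0.06). Other p53 targets had 20 of 29 (median 0.04) and other p53 regulators 6 of 10 (median 0.05). For anti-CD40 Ab against control, where no tumor received GEM, 14 of 18 replication stress checkpoint genes lay above 0 (median 0.0575). Double strand break repair had 15 of 22 there and other p53 targets 20 of 29. Other p53 regulators had 6 of 10 and the Fanconi anemia pathway 3 of 12. Whether any of these counts differs from the share of all named genes above 0 was not tested. In GEM/anti-CD40 Ab against anti-CD40 Ab the counts above 0 were 6 of 18 for the replication stress checkpoint, 4 of 12 for the Fanconi anemia pathway, 10 of 22 for double strand break repair, 17 of 29 for other p53 targets and 2 of 10 for other p53 regulators. In GEM/anti-CD40 Ab against GEM, where 6.1% of named genes were lower and 6.67% higher at an unadjusted p under 0.05 and their median log2 change was -0.02, 4 of 12 Fanconi anemia genes were lower and 0 higher (median -0.11). Lower and higher genes numbered 2 and 0 of 18 for the replication stress checkpoint (median -0.15) and 1 and 0 of 22 for double strand break repair (median -0.075). They numbered 2 and 0 of 10 for other p53 regulators (median -0.095) and 1 and 3 of 29 for other p53 targets (median 0.07). In GEM/anti-CD40 Ab against control, where 5.86% of named genes were higher and 5.35% lower at that level, 7 of 29 other p53 targets were higher and 0 lower (median 0.07, beside -0.015 for all named genes, smallest adjusted p = 0.353). There, other p53 regulators had 0 higher and 2 lower of 10, double strand break repair had 1 higher and 1 lower of 22, and the other lists had 0.

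In GEM against control, the smallest p among other p53 regulators belonged to Cdkn2a (log2 change 0.22), the locus of p16 and of the Mdm2 inhibitor Arf, and Ppm1d (0.20), a phosphatase that quenches p53 signaling. Among other p53 targets they were the initiator caspase Casp8 (0.185, adjusted p = 0.786, limma) and Ninj1 (-0.17), which ruptures the membrane of dying cells. Hus1 (0.21), part of the checkpoint clamp, Rpa2 (0.19), a subunit of the single-strand binding complex, Rad51b (0.275) and Palb2 (0.18) of recombination, and Fancf (0.16) and Fancb (0.17) of the Fanconi core complex had unadjusted p above 0.05. In GEM/anti-CD40 Ab against anti-CD40 Ab, Kat5 (0.185), Ppm1d (-0.14), Dram1 (0.37), Cd82 (0.16), Clspn (-0.26), Rpa3 (-0.10), Nhej1 (-0.15), Lig4 (-0.20), Fance (0.185) and Fanci (-0.15) led the 5 lists, each with an adjusted p of 0.937.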

How the data were processed

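Array intensities were summarized by the authors with RMA (background correction, normalization across arrays and a summary of the probes), so the deposited log2 intensity is 1 value per probe set and array. Its software version is not given in the sources used here. Of 45101 probe sets in the table, 64 were array controls, and 45037 were tested with no filter. The annotation given with the files pairs 34945 probe sets with 1 gene symbol and 932 with several, and 9160 were not listed and are unnamed here. Each pair of groups was fitted on its own 8 arrays, and the interaction and the effect of GEM over both backgrounds on 16 arrays, with limma 3.58.1 in R 4.3.3, moderated two-sided tests and Benjamini-Hochberg adjustment over all probe sets. Intervals are 95% intervals from limma's standard errors, for 1 gene at a time. The fits were tested on simulated data. The genes and lists were chosen with earlier results of these data known. All 32 genes were named, with values per array for Cdkn1a, Mdm2, Ccng1 and the 3 genes with the smallest p in each of 7 comparisons, and the 2 genes with the smallest p of each further list in either GEM comparison. Chek2 and the ranges of other genes were added after their values were seen. The number of arrays, 4 per group, limits the precision. The labels number separate mice, with GEM 3 and GEM 4 as the exception given above. Promoter motifs were searched in RefSeq windows of 300 bases.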

Additional observations from a re-analysis of the deposited data

Results flagged for a closer look

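Within 116 sets of 4 tumors (29 genes in 4 groups), 3 held a tumor whose gap to the nearest other exceeded Dixon's 95% critical share of the range, where chance gives about 1 in 20. Btg2 was 8.68 in GEM 2, against 7.87 to 7.97 in the other GEM tumors. Brca1 was 8.89 in GEM 4, against 8.63 to 8.67 in the other GEM tumors. Atm was 8.80 in GEM/anti-CD40 2, against 8.59 to 8.62 in the other GEM/anti-CD40 Ab tumors.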

How the results depend on the processing

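In all 7 comparisons, 0 of the 29 genes passed in any alternative run, with the smallest adjusted p of 0.0632 for Cdkn1a in GEM/anti-CD40 Ab against GEM without GEM/anti-CD40 3. Over the leave-one-out settings the count of genes passing was 0 to 0 in each comparison. The log2 changes of the 3 genes with the smallest p in each comparison kept their sign in all 431 alternative values. The count of probe sets passing changed more. For GEM against control, 0 in the main analysis, it was 1 with dim probe sets left out, 4 with a trended and robust prior, 1 with array weights and 3 with all probe sets of a gene averaged. It was 6 with GEM 3 and 4 averaged, 3 at an adjusted p under 0.1, and 0 to 8 without single arrays. Of the 3 arrays with skin or muscle genes this comparison holds control 2 alone. The count without control 2, which is also a single-array run, was 8. For GEM over both backgrounds, 1 in the main analysis, it was 0 with a trended and robust prior, with quantile normalization or with GEM 3 and 4 averaged, 4 without the 3 arrays, and 0 to 6 without single arrays. For GEM/anti-CD40 Ab against control, 8 in the main analysis, it was 44 with 16 arrays in one fit, 13 with a trended and robust prior, 5 with probe sets averaged, 2 without the 3 arrays, and 0 to 11 without single arrays. For anti-CD40 Ab against control, 0 in the main analysis, it was 3 without the 3 arrays and 0 to 2 without single arrays. For GEM/anti-CD40 Ab against GEM, also 0, it was 0 to 1 without single arrays. Of the 3 arrays this comparison holds GEM/anti-CD40 4 alone, and the count without it was 1. The cause of these changes was not tested. With the replicate number as a block 0 probe sets passed in GEM/anti-CD40 Ab against control, and no other count of passing genes or probe sets changed. Deviations of tumors of the same number had a median r of 0.042 (24 pairs, -0.266 to 0.273, 10 above 0.1). Those of tumors of other numbers had -0.016 (72 pairs, -0.435 to 0.395, 19 above 0.1). The ranges overlap, so these correlations cannot decide whether the numbers pair the tumors. Counts at an unadjusted p under 0.05 rest on few genes, and after scaling to the 75th percentile those higher with GEM were 0 of 29 with anti-CD40 Ab and 1 without it.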
